A study of Vitis vinifera with 18 samples.

Results

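Ripe berries of Cabernet Sauvignon, an international red grapevine variety, were compared with those of Aglianico, a red variety of southern Italy, where both grew in the open field at the Molise site. The comparison rests on 6 of the 18 RNA sequencing libraries of the study, the 3 of Cabernet Sauvignon Molise and the 3 of Aglianico Molise, chosen by variety and site in the sample titles. The other 12 libraries hold the same varieties at Sicily and Campania, with 3 libraries per variety and site, and are used only to set the Molise differences beside berries grown elsewhere. Each replicate was a pool of 10 berries ground without seeds, and polyadenylated RNA was sequenced. The design text calls the replicates biological but does not say whether they came from separate vines or plots, so p-values measure the spread between these pools. All vines were bush trained, per the labels' protocols.

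A grape berry at ripeness holds a skin, where anthocyanin pigments, tannins and many aroma compounds are made, and a flesh that stores sugars and organic acids. Varieties differ in the pace of ripening, in pigment and acid levels and in the alleles they carry, and red varieties are propagated as clones. Whole-berry RNA mixes these tissues, so fewer cells of a type and less RNA per cell cannot be told apart in any value below. The features of the table are 97442 transcript clusters with numbers in place of gene names, and the files do not pair them with genes. Of these, 64743 had a count in at least 1 Molise library.

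Clusters with 10 or more counts in at least 3 of the 6 Molise libraries were kept, which left 23153. They fell into 4 classes. Of the kept clusters, 22248 (96.1%) were counted in all 6 libraries. A further 108 were on/off clusters with counts in Cabernet Sauvignon and 0 in all 3 Aglianico libraries, and 225 were on/off clusters with counts in Aglianico and 0 in all 3 Cabernet Sauvignon libraries. The remaining 572 were counted in some but not all libraries of a variety.

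The Molise libraries held 23198429 to 26400506 expected counts in Cabernet Sauvignon and 22936262 to 23546953 in Aglianico, and the kept clusters took 98.1% to 99.7% of them. Cabernet Sauvignon had 22604 to 24328 clusters with 10 or more counts and Aglianico 20817 to 23333. These ranges overlap, and an exact two-sided permutation test gave p = 0.2 (adjusted p = 0.3 over 2 library measures, n = 3 each; the smallest p this design allows is 0.1). Pearson correlations between libraries, over the kept clusters on the log2(CPM + 1) scale, were 0.980 to 0.985 within Cabernet Sauvignon, 0.955 to 0.966 within Aglianico and 0.908 to 0.936 between the varieties. CPM are counts of a cluster per mega-count of its library, with library totals scaled by edgeR's TMM method. Outside Molise, 3 libraries stood apart. The library labelled Aglianico Campania 3 held 10 or more counts of 95 of the 108 clusters that Aglianico lacked at Molise, beside 3 and 30 in Aglianico Campania 1 and 2. Cabernet Sauvignon Sicily 2 and the Cabernet Sauvignon Sicily library without a replicate number had 45103 and 29228 clusters with 10 or more counts, beside 23540 in replicate 3. Counts of calls and patterns that rest on these libraries are given with and without them.

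The varieties differed at Molise in about as many clusters upwards as downwards. By edgeR's quasi-likelihood test on the 6 libraries, 4207 of 23153 kept clusters (18.2%) were called at a Benjamini-Hochberg adjusted p under 0.05. Of these, 1981 (8.56%) were higher and 2226 (9.61%) lower in Cabernet Sauvignon than in Aglianico. The count was 1866, 2106 and 2262 without Cabernet Sauvignon Molise replicates 1, 2 and 3. It was 3127, 5726 and 2777 without Aglianico Molise replicates 1, 2 and 3, so leaving out Aglianico replicate 2 raised it.

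Among the 22248 clusters counted in all 6 libraries, 3723 (16.7%) were called, 1698 (7.63%) higher and 2025 (9.1%) lower in Cabernet Sauvignon. Upper-quartile scaling turned this lean round, with 2098 higher and 1671 lower (55.7% higher, against 45.6% under TMM). The median log2 fold change of all 22248 clusters was -0.02 under TMM and 0.07 under upper-quartile scaling. Without Cabernet Sauvignon Molise replicates 1, 2 and 3 the calls in this class numbered 1496, 1726 and 1868. Without Aglianico Molise replicates 1, 2 and 3 they numbered 2625, 5216 and 2329.

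Most of these differences were moderate in size. The called clusters had a median absolute log2 fold change of 1.19 where Cabernet Sauvignon was higher and 1.15 where it was lower, against a median of 0.41 over all clusters counted in 6 libraries. A change of at least 2-fold was found in 59.2% of the higher and 57.7% of the lower calls. A change of at least 16-fold was found in 36 higher and 60 lower clusters. No called cluster had overlapping CPM ranges between the varieties. Ranges that did not overlap were more common than calls, with Cabernet Sauvignon above Aglianico in 4259 clusters (19.1%) and below it in 4270 (19.2%), and 4806 of these clusters were not called.

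**Figure D1:**
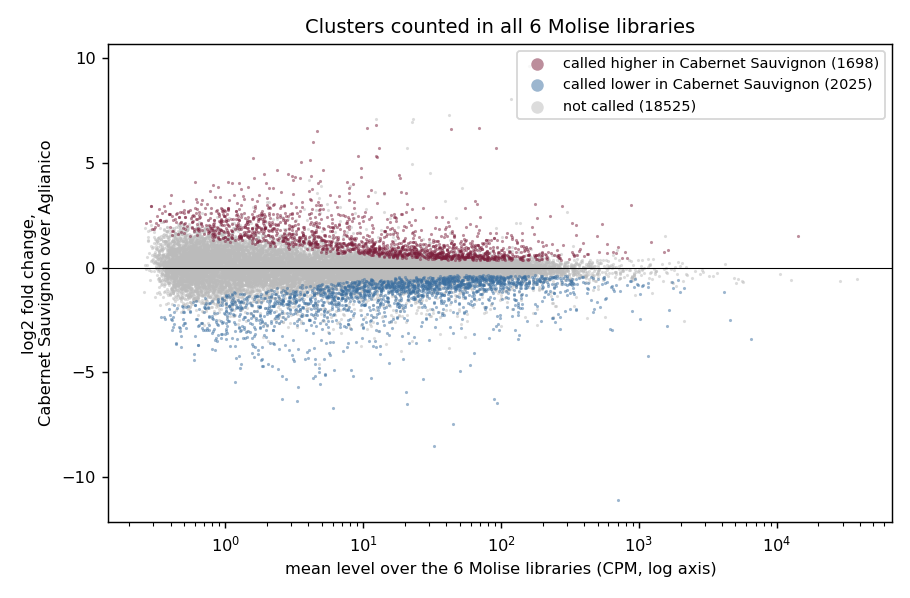
Each point is 1 of the 22248 clusters counted in all 6 Molise libraries, with its mean level on a log axis of CPM and its log2 fold change of Cabernet Sauvignon over Aglianico. The 1698 clusters called higher and the 2025 called lower (edgeR, adjusted p under 0.05) lie on both sides of 0 at all levels, and the largest fold changes, up to 6.79 and down to -11.11, stand far outside the bulk.

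Cluster-27903.20137 had the largest positive log2 fold change among the called clusters counted in all 6 libraries with at least 5 CPM in the higher variety. It stood at 25.04, 28.7 and 19.8 CPM in Cabernet Sauvignon and at 0.0486, 0.519 and 0.0498 CPM in Aglianico. Every Cabernet Sauvignon library was above every Aglianico library, and 2 of the Aglianico libraries held a single count of it. Cabernet Sauvignon averaged 24.5 ± 4.47 CPM and Aglianico 0.206 ± 0.271 CPM (SD, n = 3 each). On the log2 scale the fold change was 6.79, with an SE of 0.68 and an edgeR adjusted p of 0.00193.

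Cluster-27903.29590 was a more abundant case of the same direction. Its level was 151.5, 118.7 and 142.9 CPM in the 3 Cabernet Sauvignon libraries, against 0.438, 1.86 and 1.74 CPM in the 3 Aglianico libraries. The spread within Cabernet Sauvignon was small beside the difference, with means of 138 ± 17 CPM in Cabernet Sauvignon and 1.35 ± 0.789 CPM in Aglianico (SD, n = 3 each). The fold change on the log2 scale was 6.66, with an SE of 0.52 and an edgeR adjusted p of 0.00122.

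In the other direction, Cluster-27903.32408 showed the widest difference of any cluster counted in all 6 libraries that met the same conditions. It stood at 0.716, 0.902 and 0.281 CPM in Cabernet Sauvignon and at 590.5, 1543 and 2073 CPM in Aglianico. The Aglianico libraries differed among themselves, replicate 1 being the lowest, but all were far above Cabernet Sauvignon. Means were 0.633 ± 0.319 CPM in Cabernet Sauvignon and 1402 ± 751 CPM in Aglianico (SD, n = 3 each). This made a fold change of -11.11 on the log2 scale, with an SE of 0.83 and an edgeR adjusted p of 0.00138.

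Cluster-27903.29759 was lower in Cabernet Sauvignon at 0.204, 0.123 and 0.175 CPM, against 100.3, 45.5 and 48.7 CPM in Aglianico. Its Cabernet Sauvignon level rested on 14 counts in the 3 libraries together. All Aglianico libraries lay far above it. Means were 0.168 ± 0.0413 CPM in Cabernet Sauvignon and 64.8 ± 30.8 CPM in Aglianico (SD, n = 3 each), and the fold change on the log2 scale was -8.53, with an SE of 0.47 and an edgeR adjusted p of 0.000222.

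The balance of calls changed with the level of the cluster. The 22248 clusters were ordered by their mean CPM over the 6 libraries and divided into 5 bins of 4449 or 4450. In the bin of lowest level (0.256 to 1.06 CPM), 200 clusters were called higher and 128 lower in Cabernet Sauvignon, 7.37% in all. In the bin of highest level (41.1 CPM and above), 410 were higher and 643 lower, 23.7% in all. The median absolute log2 fold change of the called clusters was 2.26 in the lowest bin and 0.72 in the highest. Clusters with more counts behind them were called more often and at smaller differences. The filter was set on counts, and scaled totals were larger in every Cabernet Sauvignon library than in any Aglianico library. Clusters near the floor thus passed at a lower CPM in Cabernet Sauvignon, so the balance in the lowest bin is not read as a result. Among clusters with 10 or more counts in every library, 1340 were called higher and 1790 lower (42.8% higher, against 45.6%).

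**Figure D2:**
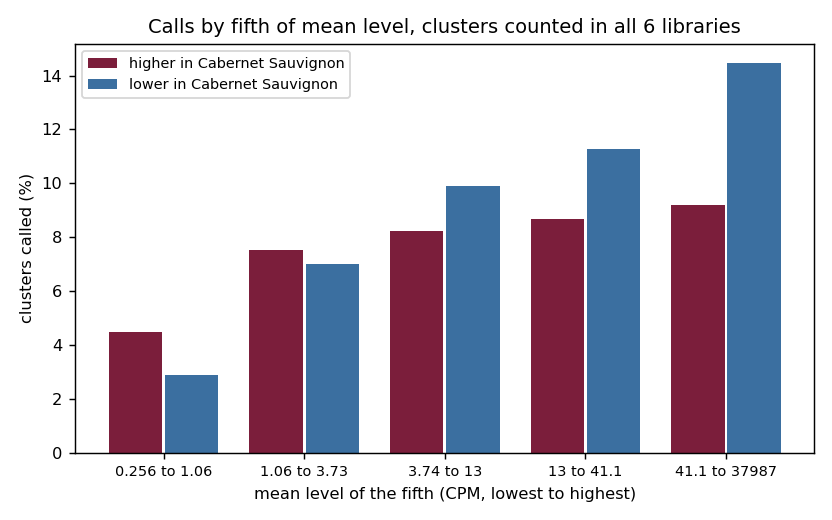
Bars give the percentage of clusters called higher (left bar) and lower (right bar) in Cabernet Sauvignon in each of 5 equal bins of mean level, with the CPM range of the bin under the bars. Higher calls make up 4.49% of the lowest bin and 9.21% of the highest, and lower calls 2.88% and 14.4%.

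Among the most abundant transcripts the calls leaned towards lower levels in Cabernet Sauvignon. Of the 1000 clusters of highest mean level, 76 were called higher (7.6%) and 171 lower (17.1%). Of the 100 highest, each at a mean of 921 CPM or more, 4 were called higher (4%) and 21 lower (21%). The shares over all clusters counted in 6 libraries were 7.63% and 9.1%, so only the lower calls exceeded theirs. The lean kept its direction under upper-quartile scaling, with 94 higher and 133 lower among the 1000 and 5 and 18 among the 100. It also did so without any 1 library, although the number of calls among the 1000 was 100, 126 and 118 without Cabernet Sauvignon Molise replicates 1, 2 and 3 and 393 without Aglianico Molise replicate 2. Without the same 4 libraries the calls among the 100 numbered 12, 16, 12 and 49.

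Ranked by mean level, the first called cluster was the exception to this lean and the next 9 followed it. The first stood at 21016, 22831 and 19767.5 CPM in Cabernet Sauvignon and at 9980, 5563 and 6501 CPM in Aglianico (fold change 1.53 on the log2 scale, SE 0.23, edgeR adjusted p 0.00533). The second stood at 1159, 1109 and 1036 CPM in Cabernet Sauvignon and at 12842, 7277 and 15260.4 CPM in Aglianico (fold change -3.42 on the log2 scale, SE 0.28, edgeR adjusted p 0.000556). These clusters were singled out after their values were seen. The 20 most abundant clusters of each library took 14.6% to 16.8% of the counts in Cabernet Sauvignon and 14.9% to 20.2% in Aglianico, and these ranges overlap.

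Replicates of Aglianico were more spread than those of Cabernet Sauvignon. Over the 22248 clusters, the median SD of log2(CPM + 1) between replicates was 0.164 in Cabernet Sauvignon and 0.239 in Aglianico, and it was larger in Aglianico for 68.0% of clusters. The gap widened with level, from 59.5% of clusters in the lowest bin to 77.5% in the highest. With 3 pools a variety this is a description of these libraries.

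The 108 clusters found in Cabernet Sauvignon and not in Aglianico at Molise were mostly of low level. They took 0.115%, 0.0698% and 0.106% of the counts in Cabernet Sauvignon Molise replicates 1, 2 and 3. Their median of mean levels was 1.84 CPM, and the ratio of the highest to the lowest Cabernet Sauvignon library had a median of 1.76, with 78.7% under 3. Clusters counted in all 6 libraries with 10 or more counts in each Cabernet Sauvignon library had a median ratio of 1.31, with 96.4% under 3. A count of 0 limits a level only to 0.130 to 0.149 CPM in an Aglianico library (3 counts per library, on the TMM-scaled totals). All 108 were called by edgeR, which the definition makes likely and which is not read as a result.

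Cluster-27903.27032 was the most abundant of them. It stood at 128.2, 100.9 and 141.2 CPM in Cabernet Sauvignon, a mean of 123 ± 20.6 CPM (SD, n = 3), and had no count in the 3 Aglianico libraries. Against 3 counts summed over the 3 Aglianico libraries (0.047 CPM), the mean was at least 2624-fold higher in Cabernet Sauvignon (edgeR adjusted p = 7.93e-05). Cluster-27903.28907 stood at 106.5, 71.5 and 108.8 CPM in Cabernet Sauvignon, again with no count in Aglianico. On the same floor its mean of 95.6 ± 20.9 CPM (SD, n = 3) was at least 2033-fold higher (edgeR adjusted p = 0.000129). Both clusters were picked for having no count in Aglianico and the highest Cabernet Sauvignon levels, so neither adjusted p is read as a result.

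The 225 clusters found in Aglianico and not in Cabernet Sauvignon were more uneven between replicates. They took 2.75%, 0.795% and 0.333% of the counts in Aglianico Molise replicates 1, 2 and 3, so replicate 1 held far more of these transcripts than replicate 3. The ratio of the highest to the lowest Aglianico library had a median of 7.56, and in 99 of the 225 clusters (44.0%) it was 10 or more. Among clusters counted in all 6 libraries with 10 or more counts in each Aglianico library, that ratio was 10 or more in 0.867%. Only 122 of the 225 were called by edgeR, 4 of them among the 99 of widest spread. Without Aglianico Molise replicates 1, 2 and 3 in turn there were 326, 239 and 369 clusters of this kind in place of 225. Leaving out a library removes a condition of the definition, so this number can only stay or rise.

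The 99 widely spread clusters carried most of these counts in Aglianico Molise replicates 1 and 2, but not in replicate 3. They took 2.34%, 0.488% and 0.118% of the counts in Aglianico Molise replicates 1, 2 and 3, and their median level was 44.3, 15.9 and 3.53 CPM in these libraries. Replicate 1 was the highest library in 63 of the 99, replicate 2 in 28 and replicate 3 in 8. For 56 of the 99, replicate 1 lay above replicate 2 and replicate 2 above replicate 3, so the remainder did not share that order. A group of 59 Aglianico clusters with a ratio under 3, by contrast, took 0.0965%, 0.123% and 0.0898% of the counts in the 3 libraries, and edgeR called all 59. Since the spread between replicates decides a call, the split fixes these counts of calls and nothing is read from them. The limits of 3 and 10 were set after the values were seen.

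Cluster-27903.36186, the most abundant of the 225, had no count in Cabernet Sauvignon and stood at 4210, 671.5 and 185 CPM in Aglianico. Cluster-27903.38407 likewise had no count in Cabernet Sauvignon and stood at 2515, 287.7 and 34.5 CPM in Aglianico. The Aglianico SD exceeded the mean in both, 1689 ± 2197 CPM for the first and 946 ± 1365 CPM for the second (SD, n = 3). Neither was called by edgeR, at adjusted p of 0.0934 and 0.145. Over the alternatives tried, the adjusted p of Cluster-27903.36186 ran between 3.05e-14 and 0.262 and that of Cluster-27903.38407 between 8.17e-10 and 0.346, and both were called by DESeq2 and by the 15-library fit (0.0199 and 0.0383). The replicate block, which treats same-numbered libraries as pairs, also called both (edgeR adjusted p of 2.57e-05 each). Cluster-27903.36186 was also called with 18 libraries (0.0189) and without Aglianico Molise replicate 1 (0.0356).

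Among the 572 clusters counted in part, 175 were called higher and 79 lower in Cabernet Sauvignon, 44.4% in all, beside 18.2% of all kept clusters. The pattern of counts all but fixes the direction of a call here, so the following counts are a description only. In 311 of them all 3 Cabernet Sauvignon libraries and 2 Aglianico libraries held a count, and 98 of those 311 were called higher. A further 100 had counts in all 3 Cabernet Sauvignon libraries and 1 Aglianico library, and 77 were called higher. Counts in all 3 Aglianico libraries and 2 or 1 of Cabernet Sauvignon were found in 85 and 43 clusters, of which 39 and 40 were called lower in Cabernet Sauvignon.

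Libraries from the other sites, which the Molise test did not use, showed how far the on/off pattern extended beyond Molise. Of the 108 Cabernet Sauvignon clusters, 76 to 78 had 10 or more counts in each Cabernet Sauvignon Sicily library and 93 to 103 in each Cabernet Sauvignon Campania library. Their absence from Aglianico was less general. In Aglianico from Sicily, 49 of the 108 reached 10 counts in at least 1 library and 35 in all 3. In Aglianico Campania 1 and 2, 3 and 30 of the 108 did so. The full pattern, 10 or more counts in every Cabernet Sauvignon library and 0 in every Aglianico library, recurred for 30 of the 108 at Sicily and for 41 at Campania without the library labelled Aglianico Campania 3. At Sicily it recurred for 35 without Cabernet Sauvignon Sicily 2 and the unnumbered library. At Campania with all libraries it recurred for 0. It held at all 3 sites for 0 of the 108 with all 18 libraries, for 21 without the library labelled Aglianico Campania 3 and for 26 without all 3 libraries that stood apart. The library labelled Aglianico Campania 3 was described as apart by its counts of these same 108 clusters. Leaving it out therefore raises these counts by construction, and leaving out any library can never lower them.

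The Aglianico clusters showed the reverse picture, absent from Cabernet Sauvignon nearly throughout and present in Aglianico only at times. Of the 225, 206 had no count in any Cabernet Sauvignon Sicily library and 175 none in any Cabernet Sauvignon Campania library. At least 10 counts in some Cabernet Sauvignon library were found for 0 of the 225 at Sicily and for 18 at Campania, where replicate 1 held 17. Over all 9 Cabernet Sauvignon libraries, 166 of the 225 (73.8%) had no count, and over the 7 without Cabernet Sauvignon Sicily 2 and the unnumbered library 172 had none. In Aglianico, 22 of the 225 reached 10 counts in all 3 Sicily libraries and 79 in both Campania 1 and 2, while 114 had no count in any Sicily library. The full pattern recurred for 16 at Sicily, 20 without Cabernet Sauvignon Sicily 2 and the unnumbered library, and for 66 at Campania without the library labelled Aglianico Campania 3. It recurred for 0 at Campania with all libraries. At all 3 sites it held for 0 of the 225 with all 18 libraries, for 11 without the library labelled Aglianico Campania 3 and for 14 without all 3 libraries that stood apart. Here too, leaving out a library can only keep or raise the count of the full pattern.

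**Figure D3:**
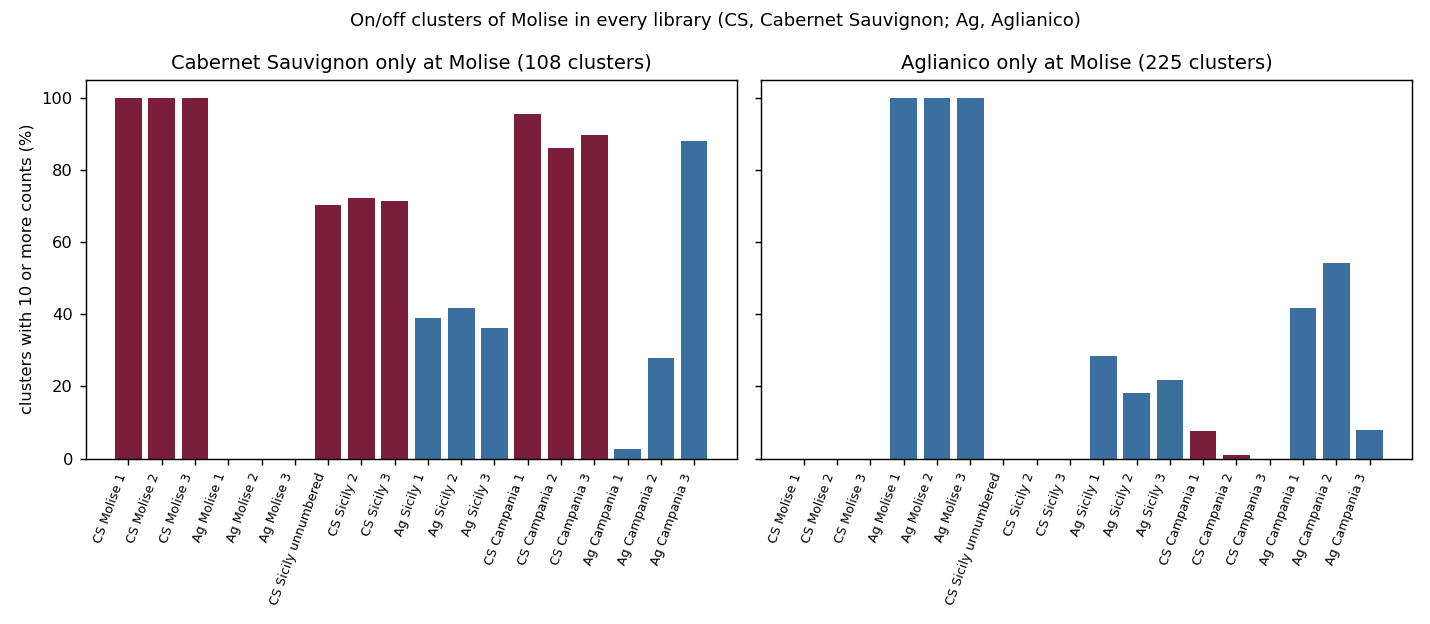
Bars give the percentage of the 108 Cabernet Sauvignon clusters (left panel) and of the 225 Aglianico clusters (right panel) with 10 or more counts in each of the 18 libraries, Molise first. The Molise bars are fixed at 100% or 0% by the definition. At the other sites the left panel keeps 70.4% to 95.4% in Cabernet Sauvignon and reaches 36.1% to 41.7% in Aglianico from Sicily, and the library labelled Aglianico Campania 3 stands at 88.0%.

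Differences in level at Molise kept their direction at Sicily more often than not. Of the 1698 clusters called higher in Cabernet Sauvignon at Molise, 1625 were tested at Sicily in a fit of their own, and 1221 (75.1%) had the same sign. Of the 2025 called lower, 1906 were tested and 1410 (74.0%) had the same sign. Over all 20327 clusters counted in 6 libraries that were tested at Sicily, 61.5% had the same sign. Their median log2 fold change was 0.49 at Sicily for the higher group and -0.52 for the lower group, beside 1.14 and -1.10 at Molise. Pearson's r of the 2 fold changes, across all 20327 clusters, was 0.216, which describes these libraries only, since clusters are not independent replicates and share each library's depth.

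A call in the same direction at Sicily was made for 539 of the higher and 668 of the lower clusters, and a call in the opposite direction for 68 and 160. Across all clusters tested at Sicily, 27.6% were called, 14.9% higher and 12.7% lower in Cabernet Sauvignon. The total of 6101 calls at Sicily became 3614 without the unnumbered library and 3036, 3860 and 3174 without Aglianico Sicily replicates 1, 2 and 3. Without Cabernet Sauvignon Sicily 2 and the unnumbered library, 9.72% were called, 5.73% higher and 4% lower in Cabernet Sauvignon, and the same-direction calls were 247 and 310 and the opposite ones 21 and 62. Agreement in sign then stood at 77.1% and 76.7%, beside 62.4% over all clusters, and r at 0.277. The 1 remaining Cabernet Sauvignon Sicily library was assumed to vary like Aglianico there.

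At Campania the comparison turned on the library labelled Aglianico Campania 3. With it, edgeR called 0 of 24290 clusters (0%), with 1779 at an unadjusted p under 0.05. Without it, 12.7% were called, 7.23% higher and 5.46% lower in Cabernet Sauvignon. Of the Molise clusters higher in Cabernet Sauvignon, 1336 of 1676 tested (79.7%) then had the same sign and 507 were called in the same direction, beside 20 in the opposite one. Of those lower in Cabernet Sauvignon, 1576 of 1931 (81.6%) had the same sign and 569 were called in the same direction, beside 30 opposite. Over all clusters tested there, 62.5% had the same sign. With the library, 79.2% and 81.2% had the same sign, beside 62.9% over all. Across the 21395 clusters tested, r was 0.531 without it and 0.520 with it. That library was set apart by its counts of on/off clusters, which were chosen for their variety difference at Molise. The counts of calls without it, and of calls in the Molise direction, are therefore partly set by leaving it out.

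Calls at all 3 sites in 1 direction, leaving out the library labelled Aglianico Campania 3, were made for 432 of the 3723 Molise clusters (11.6%), 204 higher and 228 lower in Cabernet Sauvignon. Without Cabernet Sauvignon Sicily 2 and the unnumbered library as well, 288 (7.74%) were so called, 131 higher and 157 lower. With the library labelled Aglianico Campania 3, both counts were 0. Since it was set apart by its counts of Molise on/off clusters, the counts without it are partly set by leaving it out. Over all clusters counted in 6 libraries and tested, 13.8% were called higher and 12.2% lower at Sicily with all libraries. At Campania without the library labelled Aglianico Campania 3 these shares were 6.54% and 6.05%.

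**Figure D4:**
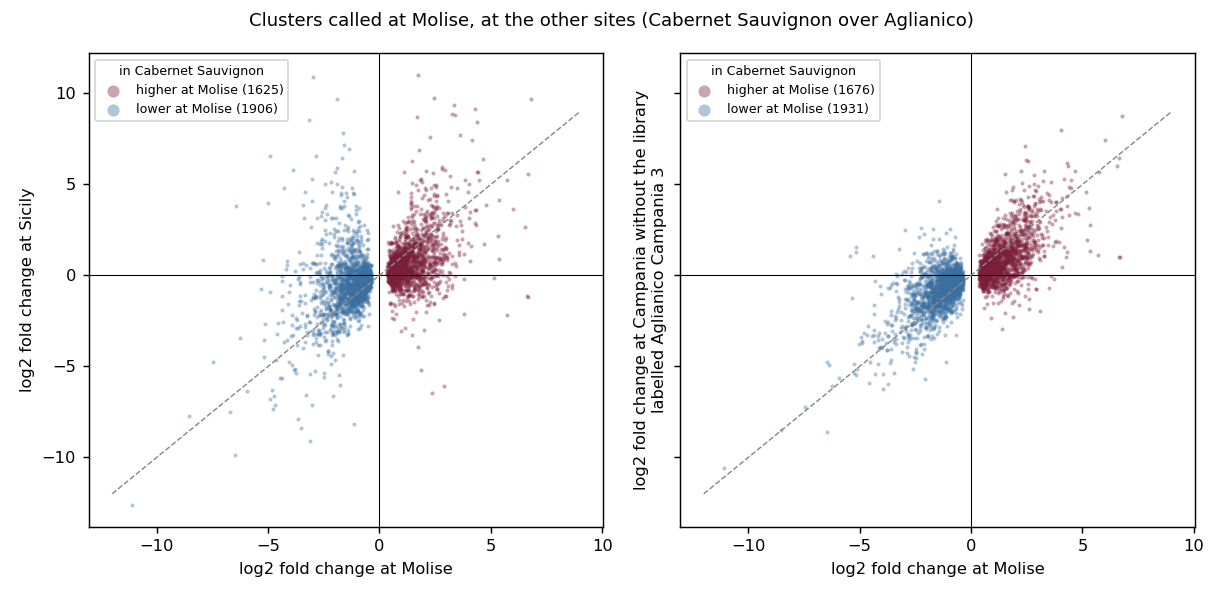
Points are clusters counted in all 6 Molise libraries and called there, with the log2 fold change of Cabernet Sauvignon over Aglianico at Molise on the horizontal axis. The vertical axis gives it at Sicily (left) or at Campania without the library labelled Aglianico Campania 3 (right), and the dashed line marks equal values. Most points lie in the quadrants of equal sign, 75.1% and 74.0% at Sicily and 79.7% and 81.6% at Campania (61.5% and 62.5% over all clusters), with a wider scatter at Sicily.

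Whether the variety difference itself differed between sites was tested as an interaction. Differences here are signed, Cabernet Sauvignon minus Aglianico, so a smaller one can be a wider gap with Aglianico the higher. Against Sicily, edgeR called 3191 of 23153 kept clusters (13.8%), with the Cabernet Sauvignon minus Aglianico difference greater at Molise in 1169 (5.05%) and smaller in 2022 (8.73%). The count was 1962 and 1938 without Cabernet Sauvignon Molise replicates 1 and 3. Without Cabernet Sauvignon Sicily 2 and the unnumbered library it was 1063 (4.59%), 395 greater (1.71%) and 668 smaller (2.89%). Among the Molise clusters called higher in Cabernet Sauvignon, 449 had a called interaction with Sicily, 382 of them with a greater difference at Molise, and among those called lower 569 did, 532 of them with a lower value at Molise. These are 26.4% and 28.1% of the clusters, beside 13.7% of all clusters counted in 6 libraries. Without the 2 Sicily libraries these counts were 191 (11.2%) and 291 (14.4%), beside 4.47%. Since these clusters were chosen for their difference at Molise, the direction of the interaction is partly set by that choice.

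Against Campania, the interaction was called for 3 clusters (0.013%) with all libraries. Without the library labelled Aglianico Campania 3 it was called for 737 (3.18%). The signed difference was then greater at Molise in 322 (1.39% of kept clusters) and smaller in 415 (1.79%). With all libraries but 1, the count was 101 without Aglianico Campania replicate 1, 19 without Aglianico Molise replicate 2, 1 without Cabernet Sauvignon Molise replicate 2 and 0 without any of 7 others.

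The named clusters differed in how far their order of levels extended to the other sites. With all Campania libraries, 6 of the 8 passed the filter there and none was called. The Campania adjusted p given below without the library labelled Aglianico Campania 3 carry the limit stated above for that library. Cluster-27903.32408 stood at 0.163, 0.237 and 0.18 CPM in Cabernet Sauvignon and at 1523, 880 and 1391 CPM in Aglianico at Sicily (log2 fold change -12.63, edgeR adjusted p = 7.4e-05; 0.00186 without Cabernet Sauvignon Sicily 2 and the unnumbered library). At Campania it stood at 0.424, 0.462 and 0.106 CPM in Cabernet Sauvignon and at 359, 650 and 0.803 CPM in Aglianico, the last value being the library labelled Aglianico Campania 3. The edgeR adjusted p at Campania was 0.637 with that library and 0.00049 without it. Cluster-27903.29759 had 0.326 to 0.391 CPM in Cabernet Sauvignon and 61.8 to 94.8 CPM in Aglianico at Sicily (edgeR adjusted p = 7.4e-05; 0.00186 without the same 2 libraries). At Campania it had 0.168 to 0.494 CPM in Cabernet Sauvignon, against 103.6 and 121.4 CPM in Aglianico replicates 1 and 2 and 0.321 CPM in the library labelled replicate 3. That library lay within the Cabernet Sauvignon range, and the edgeR adjusted p was 0.637 with it and 9.1e-05 without it.

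Cluster-27903.20137 was higher in every Cabernet Sauvignon library than in every Aglianico library of the same site. It stood at 16.5 to 38.2 CPM in Cabernet Sauvignon from Sicily and had 2 counts in all in Aglianico from Sicily (edgeR adjusted p = 0.00146; 0.00253 without Cabernet Sauvignon Sicily 2 and the unnumbered library). At Campania it stood at 10.4 to 13.2 CPM in Cabernet Sauvignon and had 1 count in Aglianico replicates 1 and 2 together, beside 8.12 CPM in the library labelled replicate 3 (edgeR adjusted p of 0.7 with that library and 0.000348 without it).

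Cluster-27903.29590 differed from these. At Sicily it stood at 27.9, 52 and 2.74 CPM in Cabernet Sauvignon, with the lowest value in replicate 3, against 43, 95.2 and 49.8 CPM in Aglianico, and the groups overlapped (log2 fold change -1.19, edgeR adjusted p = 0.404). Without Cabernet Sauvignon Sicily 2 and the unnumbered library, it was called lower in Cabernet Sauvignon there, at -4.51 and an adjusted p of 0.0323. At Campania it stood at 124.5, 81 and 132.9 CPM in Cabernet Sauvignon, against 1.5, 111.8 and 39.9 CPM in Aglianico replicates 1 and 2 and the library labelled replicate 3. Aglianico Campania 1 lay near the Aglianico Molise levels, and Aglianico Campania 2 lay within the Cabernet Sauvignon range.

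The same split within Aglianico was seen in both named Cabernet Sauvignon on/off clusters. Cluster-27903.27032 had 58.8, 76.6 and 5.63 CPM in Cabernet Sauvignon and 33.4, 113.2 and 86.4 CPM in Aglianico at Sicily. At Campania it had 136.9, 113.1 and 118.6 CPM in Cabernet Sauvignon and no count in Aglianico replicate 1, against 118.7 CPM in Aglianico replicate 2. Cluster-27903.28907 had 9.71, 14.1 and 2.5 CPM in Cabernet Sauvignon and 17.1, 116.3 and 8.47 CPM in Aglianico at Sicily. At Campania it had 44 to 108.6 CPM in Cabernet Sauvignon, no count in Aglianico replicate 1 and 63.2 CPM in Aglianico replicate 2. Neither was called at Sicily, with or without Cabernet Sauvignon Sicily 2 and the unnumbered library (edgeR adjusted p of 0.604 and 0.112 for the first, and of 0.181 and 0.421 for the second).

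Cluster-27903.36186 and Cluster-27903.38407 were near or at 0 in Cabernet Sauvignon everywhere, with 1 count in all in the 9 libraries for the first and 0 for the second. In Aglianico from Sicily they stood at 48.5 to 553.5 CPM and at 20.9 to 735.6 CPM, and both were called lower in Cabernet Sauvignon there (edgeR adjusted p of 0.00771 and 0.0403). Without Cabernet Sauvignon Sicily 2 and the unnumbered library these adjusted p were 0.207 and 0.254. In Aglianico Campania 1 and 2 they stood at 58.5 and 293.9 CPM and at 40.2 and 160.4 CPM. Both were present in every Aglianico library other than the one labelled Aglianico Campania 3, which held 1 count of the first and 0 of the second.

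**Figure D5:**
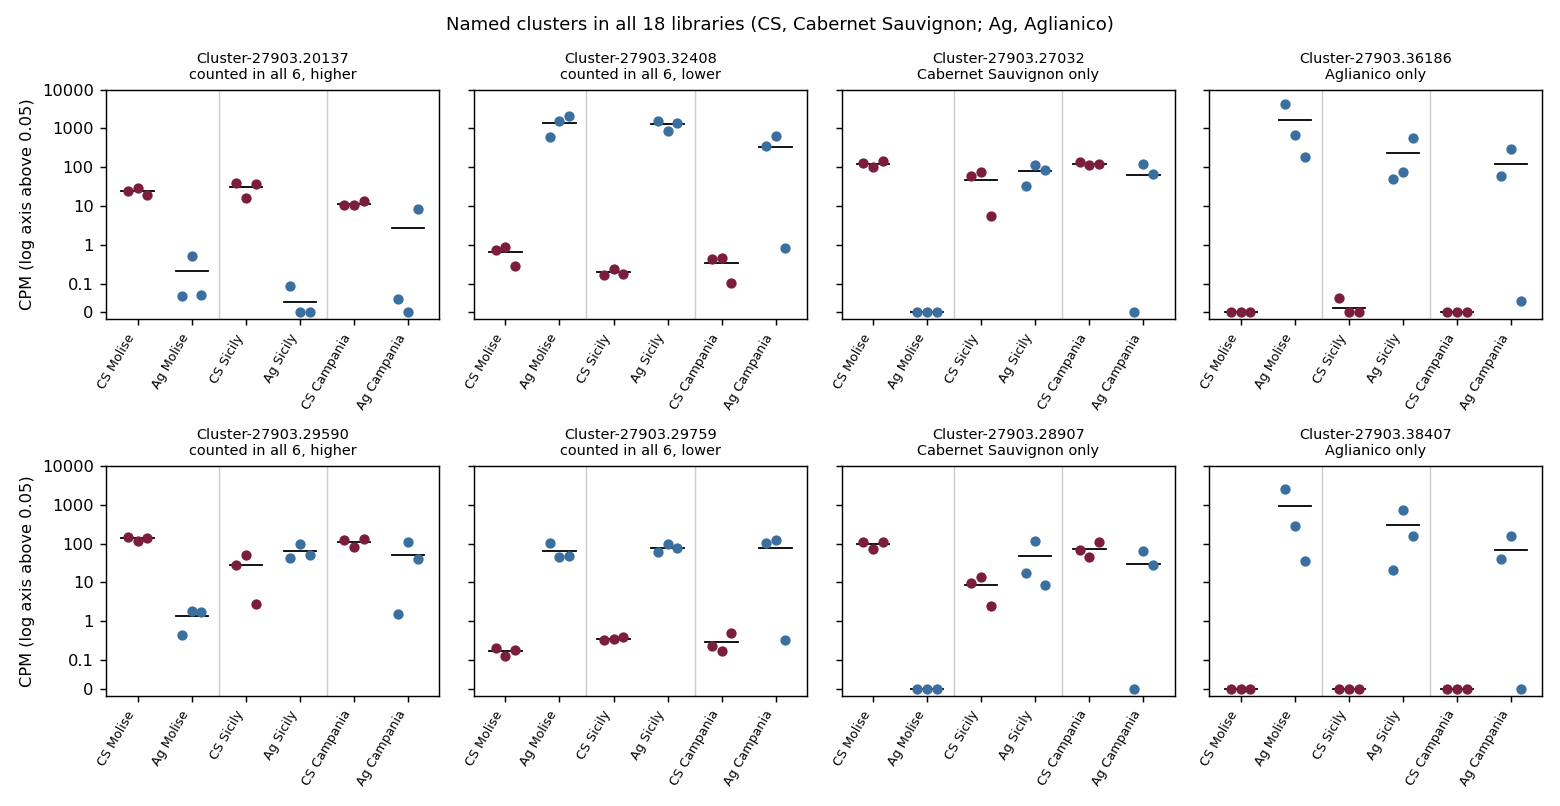
Each panel shows 1 named cluster in the 18 libraries, as CPM scaled within each site, on an axis that is logarithmic above 0.05 and reaches 0. Points are libraries and bars are group means, with Cabernet Sauvignon left of Aglianico at each site. Cluster-27903.32408 keeps its order at all 3 sites, with 590.5 CPM or more in every Aglianico Molise library, whereas Cluster-27903.27032, at 100.9 CPM or more in Cabernet Sauvignon Molise and 0 in Aglianico Molise, reaches 33.4 to 113.2 CPM in Aglianico from Sicily.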

How the data were processed

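The authors deposited 1 table of expected counts (estimated read counts per transcript cluster, not all whole) that are not scaled to a common depth. Per the submitters' processing notes, CASAVA 1.8, RSEM and DESeq2 were used, with no role stated. For the aligner, the assembler and the build, nothing is given in the sources used here. All 18 columns were mapped and 0 left aside, and 1 Cabernet Sauvignon Sicily column, which carries no number, was assigned to the group alone. Of the cluster identifiers, 0 matched the RefSeq gene table (assembly ASM3070453v1), so no list of genes or markers was tested. Estimated counts can divide reads between related genes or alleles, and a diverged allele may be numbered as a cluster of its own, so that a cluster looks absent from 1 variety, which was not tested.

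Expected counts were rounded. Clusters with 10 or more counts in at least 3 of the 6 Molise libraries were kept. The main test was edgeR 4.0.16 in R 4.3.3 (TMM, robust glmQLFit, glmQLFTest) on the 6 libraries, with Benjamini-Hochberg adjustment over all kept clusters and a call at adjusted p under 0.05. The 6-library fit was used because 3 libraries of other sites stood apart. SE is the fold change over the square root of F. Sicily and Campania had fits of their own with the same filter, and CPM are scaled within a site; interactions were fitted on the 12 libraries of a pair of sites. Named clusters are the 2 largest and the 2 smallest log2 fold changes among called, non-overlapping clusters with 5 CPM or more in the higher variety, and the 2 most abundant on/off clusters of each variety. Intervals and floors cover counting error only. No pair of Molise libraries was a copy (lowest chi-square per degree of freedom 21.7). On simulated Molise counts (23153 clusters, 50 changed at each size), recovery was 12% for a 2-fold change, 56% at 4-fold, 84% at 8-fold and 92% at 16-fold. Of the calls made, 6.15% (8 clusters) were false. The simulation gave both varieties the same spread and changed far fewer clusters than were called in the data. Its recovery and false calls therefore do not carry over directly to the data. Alternatives were other scalings, filters, tools and library sets, a replicate block, and leaving out each library. The comparison and the rules were chosen with earlier results of these data known.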

Additional observations from a re-analysis of the deposited data

Results flagged for a closer look

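For 3 named clusters the variety difference at Molise differed from that at Sicily by the interaction test of edgeR. These clusters were chosen for their difference at Molise, which also enters the test, so the outcome is partly set by that choice. For Cluster-27903.29590 the Molise minus Sicily difference of log2 fold changes was 7.81 (adjusted p = 0.00614), from 6.66 at Molise and -1.19 at Sicily. For Cluster-27903.27032 it was 15.11 (adjusted p = 0.00568) and for Cluster-27903.28907 it was 16.45 (adjusted p = 0.00791). Aglianico Molise had no count of the last 2 clusters, so the size of these values depends on the prior count of the fit and is no bound. All 3 were lower in Cabernet Sauvignon Sicily 3 than in the other libraries of that group. Without Cabernet Sauvignon Sicily 2 and the unnumbered library the 3 values were 11.16, 18.19 and 18.28 in the same order. They then rest on Cabernet Sauvignon Sicily 3 alone in its group. No call is given for them, and their larger size does not make them firmer. Against Campania the interaction was called for none of them, at edgeR adjusted p of 0.214, 0.238 and 0.2425 with all libraries. Without the library labelled Aglianico Campania 3 these were 0.128, 0.176 and 0.178. What these differences rest on was not tested.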

How the results depend on the processing

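At Molise the counts of calls stayed within 1.5 times their value under RLE and upper-quartile scaling, no filter, filterByExpr, DESeq2, limma-voom, fits on 18 or 15 libraries and the replicate block. The block gave 4424 calls in place of 4207 and 3828 in place of 3723. The clusters called were not all the same. Of the 4207 main calls, 3006 were also made by the 18-library fit and 3732 by the block. The other scalings, filters and tools shared 3808 to 4186 of them. The block also called Cluster-27903.36186 and Cluster-27903.38407 (adjusted p = 2.57e-05 each). The main fit did not take the numbers as pairs. Same-numbered Molise libraries had deviations correlated at 0.201, 0.0413 and 0.359, and differently numbered ones at -0.37 to 0.125. Each Cabernet Sauvignon replicate correlated best with the Aglianico replicate of its number, but Aglianico replicate 2 correlated best with Cabernet Sauvignon replicate 1. At Campania the same-numbered values were -0.107, 0.028 and 0.00302. Whether the numbers mark pairs was not settled by these values. With the block, Campania had 1 call in place of 0, and its interaction with Molise 0 in place of 3. No block could be fitted for Sicily, where 1 column has no number.

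With 1 library left out, calls ranged from 1866 to 5726 over all kept clusters and from 1496 to 5216 over those counted in all 6 libraries. Calls ranged from 12 to 49 among the 100 and from 100 to 393 among the 1000 most abundant, an alternative chosen after seeing the data. On/off clusters ranged from 367 to 503, 115 to 159 of Cabernet Sauvignon and 232 to 369 of Aglianico. Interaction calls ranged from 1938 to 3478 with Sicily and from 0 to 737 with Campania, and calls at the sites from 3036 to 6021 at Sicily and from 0 to 3081 at Campania. Without both doubted Sicily libraries there were 2146 calls at Sicily and 1063 interaction calls. Allowing 1 count in the empty variety gave 163 Cabernet Sauvignon on/off clusters, and requiring 100 counts in the other variety gave 100 on/off clusters, 28 of Cabernet Sauvignon and 72 of Aglianico. For on/off clusters, leaving out a library or allowing 1 count loosens the definition, so their number could not fall. Requiring 100 counts tightens it, so their number could not rise. The cause of the other moves was not tested, except that leaving out a library lowers the number of samples. The 6 called named clusters kept call and direction under all 15 alternatives, with a highest adjusted p of 0.0299 (edgeR, Cluster-27903.28907). They were chosen for extreme values in the same Molise libraries that the alternatives reuse, so this outcome is largely set by that choice. Cluster-27903.27032 and Cluster-27903.28907, with no count in Aglianico Molise, could not change direction.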
